A study of Mus musculus with 3 samples.

Results

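The Hox genes were examined in chromatin accessibility data from mouse islets of Langerhans. All protein-coding genes with a symbol of Hoxa, Hoxb, Hoxc or Hoxd followed by a number were taken from the GENCODE annotation of mouse assembly mm9, without use of any measured value. This gave 39 of 22219 protein-coding symbols, 11 in HoxA on chromosome 6, 10 in HoxB on chromosome 11, 9 in HoxC on chromosome 15 and 9 in HoxD on chromosome 2. ATAC-seq, in which a transposase inserts adapters where chromatin is open, was performed on cells dissociated from isolated islets of mice whose strain label reads C5LBl6. There was 1 library per group: wild type (WT, Taf4+/+, with no time on its label), Taf4 KO 1 week and Taf4 KO 5 weeks. The Taf4 protein is part of TFIID, the complex that nucleates transcription initiation at promoters. Per the study, tamoxifen was given to controls and mutants alike, and a tamoxifen-activated Cre under an Ins1 promoter deleted the floxed gene in beta cells only. The design thus leaves Taf4 intact in islet cells that do not express this Cre. The labels give no age and do not say how many animals entered a library. With no replicate, no p-value was computed, and every difference below is a difference between 3 peak lists.

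Hox genes encode homeodomain transcription factors that specify position along the head-to-tail axis of the embryo. In mammals they lie in tight clusters and are ordered by paralog number: genes of low number act anteriorly and early, those of high number posteriorly and late. All genes of a cluster are transcribed in the same direction, from the posterior towards the anterior end. Where a Hox gene is silent, Polycomb complexes typically hold it, together with its neighbours, in compact chromatin, and trithorax complexes of the MLL family maintain active Hox genes. Pancreas forms from foregut endoderm and depends on Pdx1, a gene of the sister ParaHox cluster, whereas Hox expression along the trunk is strongest in mesodermal and neural derivatives.

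The peak lists held 60898 (WT), 150354 (1 week) and 151725 peaks (5 weeks), each called by the authors on its own library with the lowest −log10 q close to 1 in all. Read totals are not part of such lists. The local background recovered from the fold and the p-value of each peak had a floor of 3.66, 6.45 and 9.38 reads, so the knockout libraries were 1.76 and 2.57 times as deep as WT by this measure. The islet label was checked on 12 islet endocrine marker genes, of which 10, 12 and 12 had a promoter peak, Ins1 with a −log10 q of 25.3, 13 and 40. Gcg and Sst, the hormones of alpha and delta cells, were called in the knockout lists only, at 4.96 and 1.41 at 1 week and 7.14 and 1.33 at 5 weeks. When each list was cut to its strongest 60898 peaks, the lowest −log10 q was 2.39 at 1 week and 3.04 at 5 weeks. Sst was then called in no list.

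In WT islets nearly all Hox promoters were without a peak, and at 1 week all of them were. A promoter peak, meaning at least 1 bp of a peak between 1000 bp upstream and 100 bp downstream of any start of a protein-coding transcript, was called for 3 of the 39 in WT, for 0 in the 1 week list and for 13 in the 5 week list. The lists called 59.2% (WT), 56.1% (1 week) and 65.8% (5 weeks) of all protein-coding genes. Against WT, 0 Hox genes gained and 3 lost a promoter peak at 1 week, where 5.47% and 8.55% of all genes did. At 5 weeks 11 Hox genes gained one, 1 lost it and 2 kept it, while 7.73% of all genes gained and 1.12% lost one. Each share is over all genes, and the 59.2% called in WT could not gain one. Both comparisons share the WT library and were only set side by side.

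**Figure D1:**
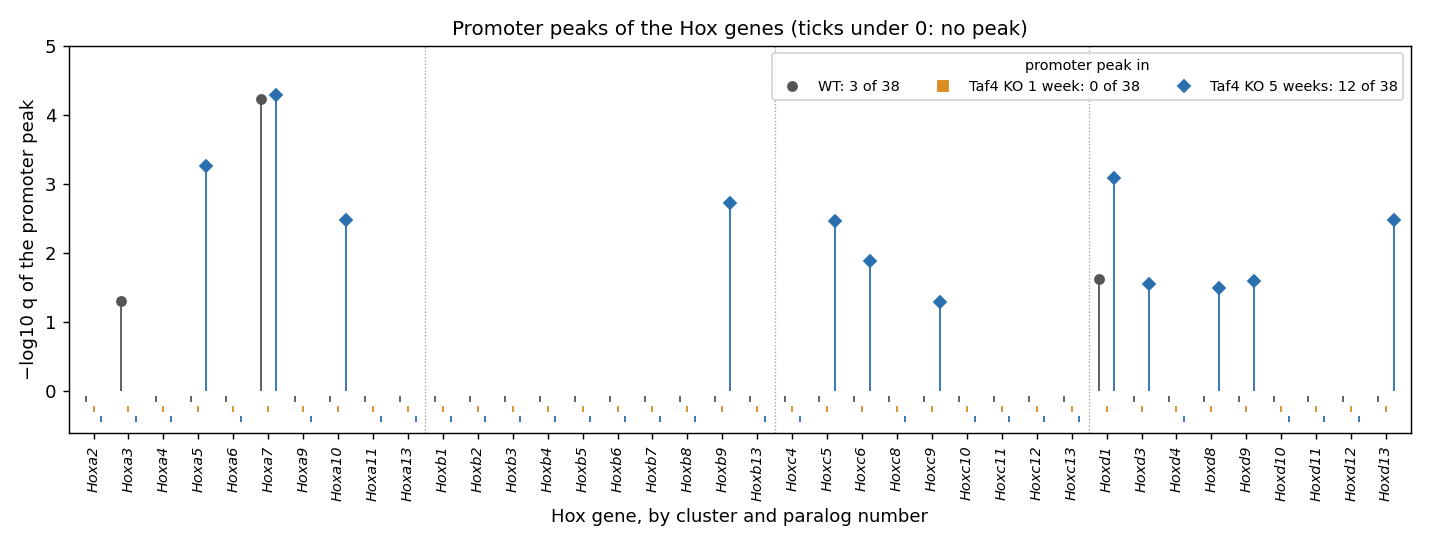
Promoter peaks of 38 of the 39 Hox genes. The vertical axis gives the −log10 q of a gene's strongest promoter peak in the WT, 1 week and 5 week lists, genes are ordered by cluster and paralog number, and small ticks under 0 mark genes without a peak. The WT list marks Hoxa3, Hoxa7 and Hoxd1, the 1 week list none and the 5 week list 12 of the genes shown, in all 4 clusters.

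In WT the called promoters were weak except Hoxa7, and at 5 weeks they lay on both sides of the list median. The 3 WT genes were Hoxa7 with a −log10 q of 4.23 and a fold of 3.46 over the local background, Hoxd1 with 1.63 and 2.68, and Hoxa3 with 1.30 and 2.49. The median −log10 q of all WT peaks was 3.71, and 19 of the 20 WT peaks found anywhere in the clusters lay below it. At 5 weeks the 13 values ran from 1.29 for Hoxc9 to 4.29 for Hoxa7, around a median of 2.38 for all peaks of that list. Of the 26 5 week peaks in the clusters, 13 lay below that median.

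Hoxa7, which patterns the thoracic axis, had the highest promoter value of all Hox genes both in WT and at 5 weeks. Its WT peak of 532 bp at chr6:52171435-52171966 and its 5 week peak of 586 bp at chr6:52171318-52171903 covered the most upstream of its 4 annotated starts. Hoxd1, the anterior end of HoxD, was called in the same lists. Its WT peak of 224 bp at chr2:74601050-74601273 began 13 bp inside the gene, and the 5 week peak of 754 bp at chr2:74600918-74601671, with a −log10 q of 3.09, took in the start. Hoxa3, a gene of the neck and pharyngeal arches, was called in WT only. That peak of 470 bp at chr6:52162617-52163086 lay at its most distant annotated starts, between Hoxa6 and Hoxa7, and a stretch of 347 bp separated it from the nearest 5 week peak.

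Of the genes called at 5 weeks and not in WT, Hoxa5, which acts in the lung and thorax, had the strongest promoter peak. It spanned 938 bp at chr6:52153768-52154705 with a −log10 q of 3.27 and a fold of 2.48, and the nearest WT peak was 6822 bp from its start. Hoxb9 had a value of 2.72, Hoxa10 2.48, Hoxd13 2.47, Hoxc5 2.46 and Hoxc6 1.89. Hoxd9, Hoxd3, Hoxd8 and Hoxc9 followed at 1.59, 1.55, 1.5 and 1.29. They include anterior genes such as Hoxd3 and posterior ones such as Hoxd13, a gene of digits and hindgut. The Hoxd3 peak, however, lay at the most upstream of its 6 annotated starts, between Hoxd8 and Hoxd4. In 7 of the 11 the peak covered a start. At Hoxa10, Hoxd8 and Hoxd13 it overlapped a WT peak that began 236, 115 and 249 bp from the start, inside the gene and just outside the promoter window, so those calls moved across the edge of the window. The other 8 had no WT peak under them.

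Sequences of the stretches that carry these calls are given from mm9, 5′ to 3′ on the strand of the named gene. Capitals mark CpG dinucleotides, the feature by which most open promoters stand out from the genome, and annotated untranslated regions were left out. For Hoxa7 and Hoxd1 the shared part of the WT and 5 week peaks is shown from an annotated start codon on. The places are chr6:52171435-52171635 (minus strand, first exon and intron) and chr2:74601159-74601273 (plus strand, coding). The Hoxa7 codon lies by the most upstream of 4 annotated starts and need not be that of the main Hoxa7 protein. For Hoxa3 it is a part of the WT peak, cut to 300 bp, at chr6:52162677-52162976 (minus strand, not coding).
Hoxa7 shared: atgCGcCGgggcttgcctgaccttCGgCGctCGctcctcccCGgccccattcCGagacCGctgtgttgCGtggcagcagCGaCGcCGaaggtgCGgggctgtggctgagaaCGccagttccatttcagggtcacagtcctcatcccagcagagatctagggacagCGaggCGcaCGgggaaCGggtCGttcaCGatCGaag
Hoxd1 shared: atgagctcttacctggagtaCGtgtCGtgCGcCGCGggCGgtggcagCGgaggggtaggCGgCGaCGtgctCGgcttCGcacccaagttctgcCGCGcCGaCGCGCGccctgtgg
Hoxa3 WT: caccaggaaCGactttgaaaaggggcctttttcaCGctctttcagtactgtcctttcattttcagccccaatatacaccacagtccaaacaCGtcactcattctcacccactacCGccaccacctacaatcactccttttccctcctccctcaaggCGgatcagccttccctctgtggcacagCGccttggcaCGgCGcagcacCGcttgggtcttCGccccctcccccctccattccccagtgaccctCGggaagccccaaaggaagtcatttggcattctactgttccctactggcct
The stretches held 21 CpG in 201 bp, 18 in 115 bp and 11 in 300 bp. Relative to base composition that was a CpG ratio (observed over expected) of 0.97, 1.25 and 0.56. The stretches are not alike, since those of Hoxa7 and Hoxd1 begin at a start codon and that of Hoxa3 is not coding.

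The CpG ratio over the promoter windows had a median of 0.51 (range 0.10 to 0.86) for Hox genes and 0.47 for all genes. When all genes were divided by this ratio into 5 groups of equal size, 1, 7, 15, 8 and 8 Hox genes fell into the groups from poor to rich. In the middle group, which held more Hox genes than any other, 75.3%, 67.6% and 82.4% of all genes had a promoter peak in the WT, 1 week and 5 week lists, and in the richest group 95.7%, 87.8% and 97.8%.

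HoxD and HoxA held most of the calls. In WT, 2 of 11 HoxA genes, 0 of 10 HoxB, 0 of 9 HoxC and 1 of 9 HoxD genes had a promoter peak, and at 5 weeks 4, 1, 3 and 5. By paralog number, the anterior genes of groups 1 to 3 (8 genes) gave 2 in WT and 3 at 5 weeks, groups 4 to 8 (15 genes) 1 and 5, and the posterior groups 9 to 13 (16 genes) 0 and 5. No paralog group was called as a whole. Group 9 came closest at 5 weeks, with Hoxb9, Hoxc9 and Hoxd9 called and Hoxa9 not, while groups 2, 4, 11 and 12, with 2, 4, 3 and 2 genes, had none in any list.

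The peaks over the clusters were then mapped, each cluster taken with 5 kb on either side. The WT list had 20 peaks over 532 kb of cluster, 7 in HoxA, 6 in HoxB, 3 in HoxC and 4 in HoxD. The 1 week list had 0 in every cluster. The 5 week list had 26, with 5 in HoxA, 3 in HoxB, 7 in HoxC and 11 in HoxD. Covered length was 8046 bp, or 1.51%, in WT and 15102 bp, or 2.84%, at 5 weeks. HoxA and HoxB thus had fewer peaks at 5 weeks than in WT, and HoxC and HoxD more. Covered length, however, fell only in HoxB, from 1940 bp in WT to 1508 bp at 5 weeks. In HoxA it rose from 2780 to 3776 bp.

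**Figure D2:**
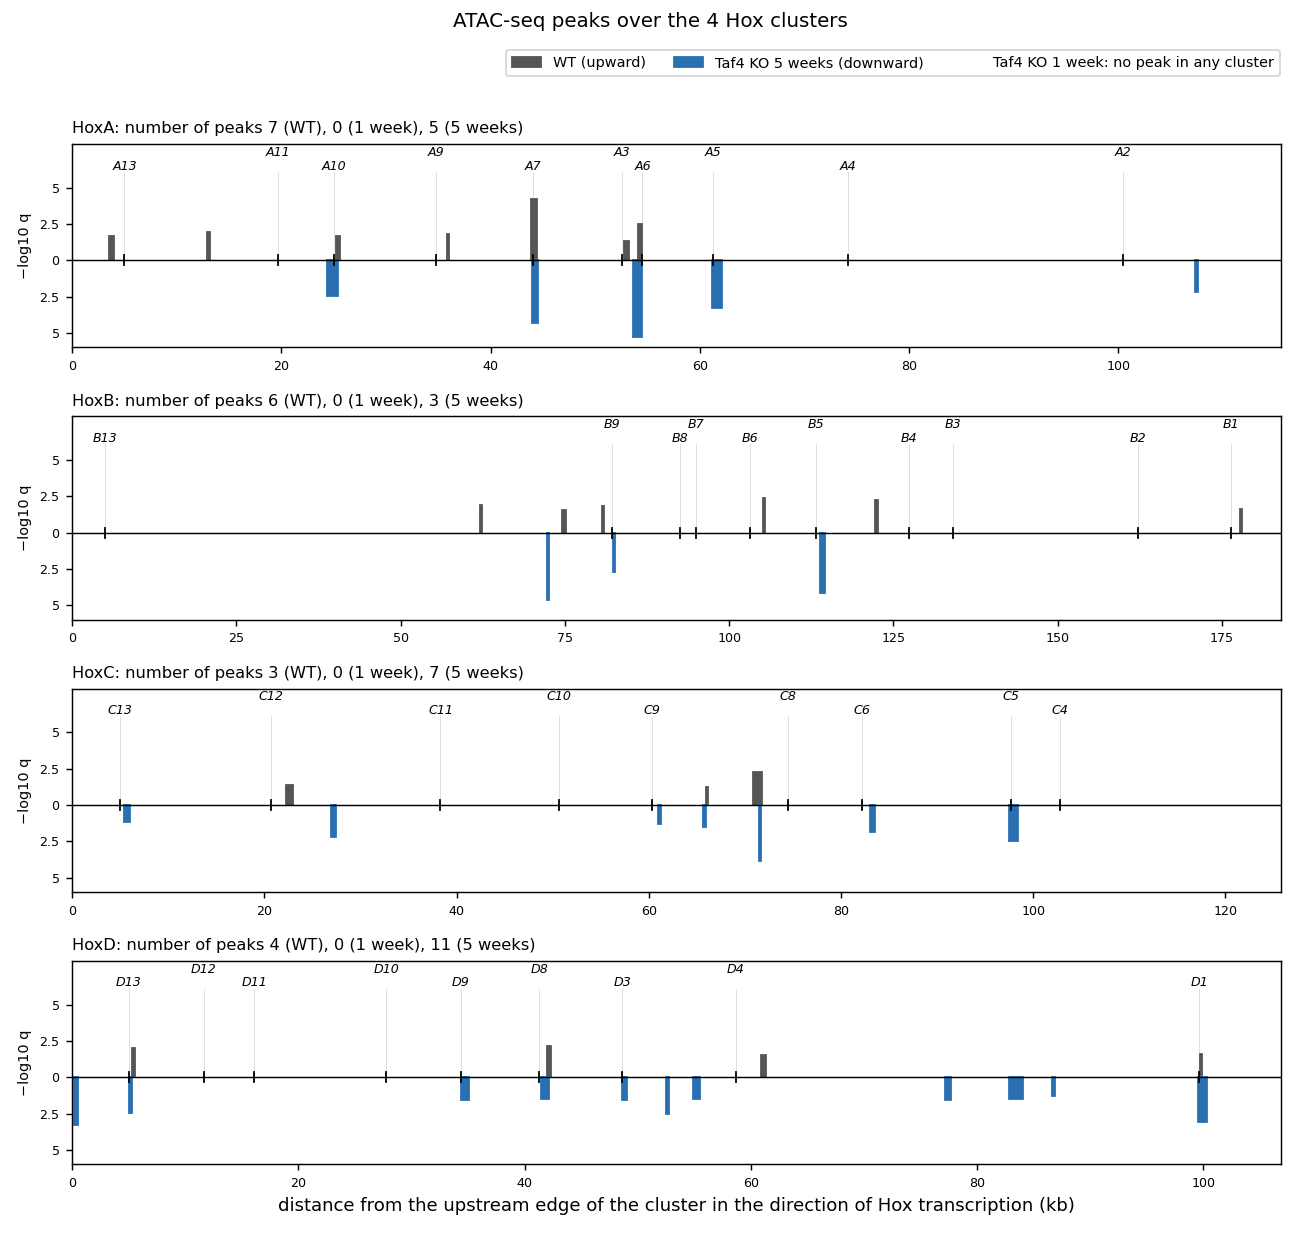
Peaks over the 4 Hox clusters, drawn to scale in the direction of transcription, with kb from the upstream (posterior) edge on the horizontal axis. Bars give the −log10 q of each peak, upward for WT and downward for 5 weeks, and black ticks with letters and paralog numbers mark the most upstream start of 38 of the 39 Hox genes. The 1 week list has no bar in any cluster, and WT and 5 week bars meet at few places.

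Widths in WT ran from 200 to 963 bp (median 371 bp) and −log10 q from 1.23 to 4.23. At 5 weeks widths ran from 230 to 1237 bp (median 558 bp) and −log10 q from 1.21 to 5.26. In WT 4 peaks lay in promoters (1 of them in that of Gm53, a gene annotated between Hoxb13 and Hoxb9), 6 in exons, 4 in introns and 6 between genes. At 5 weeks 14 lay in promoters (1 of them in that of Gm17649, beside Hoxc13), 4 in exons, 4 in introns and 4 between genes. The midpoint was within 1 kb of a Hox start for 7 of 20 WT peaks, each of them downstream of the start, and for 14 of 26 at 5 weeks. A CpG ratio of at least 0.6 was found in 10 of 20 and 19 of 26.

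The strongest peak of each cluster was not a Hox promoter by the above rule, except Hoxa7 in WT. In HoxA at 5 weeks it was a peak of 852 bp at chr6:52161418-52162269 with a −log10 q of 5.26, the only Hox peak of any list above 5. It lay in the long first intron of the distal Hoxa3 transcript and overlapped a WT peak of 379 bp with a −log10 q of 2.52. Both also lay just upstream of a non-coding Hoxa6 transcript and over 2700086A05Rik, a long RNA gene of the opposite strand. In HoxB the strongest were a WT peak in an intron of Hoxb6 (chr11:96155734-96156067, 2.37) and a 5 week peak in an exon of Gm53, 9746 bp upstream of Hoxb9 (chr11:96122844-96123206, 4.66). In HoxC both lists had their strongest peak at one place upstream of Hoxc8, a gene of the lower thoracic and brachial level, with 2.25 for 963 bp in WT (chr15:102817366-102818328) and 3.87 for 230 bp at 5 weeks (chr15:102817959-102818188). In HoxD the strongest were a WT peak in an exon of Hoxd8 (chr2:74543324-74543718, 2.16) and a 5 week peak 4652 bp upstream of Hoxd13 (chr2:74501516-74501915, 3.30).

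The shared part of the peaks in the Hoxa3 intron, cut to 300 bp, is chr6:52161452-52161751 (minus strand). That of the peaks upstream of Hoxc8 is chr15:102817959-102818188 (plus strand). Both are shown, since these non-coding stretches recurred in WT and at 5 weeks as the strongest or among the strongest of their cluster.
Hoxa3 intron: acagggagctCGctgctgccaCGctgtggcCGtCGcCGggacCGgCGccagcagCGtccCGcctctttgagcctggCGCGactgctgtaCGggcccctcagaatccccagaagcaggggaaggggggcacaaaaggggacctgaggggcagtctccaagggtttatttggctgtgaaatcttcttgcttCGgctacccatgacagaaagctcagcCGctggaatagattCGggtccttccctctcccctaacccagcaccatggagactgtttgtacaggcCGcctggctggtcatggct
Hoxc8 upstream: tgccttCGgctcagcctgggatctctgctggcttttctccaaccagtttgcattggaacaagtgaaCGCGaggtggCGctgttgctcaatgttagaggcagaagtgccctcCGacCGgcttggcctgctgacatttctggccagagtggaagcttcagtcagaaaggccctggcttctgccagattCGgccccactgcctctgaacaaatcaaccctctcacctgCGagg
They held 16 CpG in 300 bp and 8 in 230 bp, with CpG ratios of 0.55 and 0.43. The core motif of CTCF, the factor that marks boundaries between domains of Hox clusters, was matched on both strands in 0 of 20 WT and 0 of 26 5 week Hox peaks, against 3.89% and 2.68% of all peaks. TAATTA, the core bound by many homeodomain proteins, was found in 1 and 1 (10.5% and 12.8% of all peaks), and TGANTCA, bound by AP-1, in 2 and 2 (19.6% and 19.4%). A match here is a match of letters only.

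WT and 5 week peaks seldom coincided in the clusters. Of the 20 WT peaks 7 (35%) overlapped a 5 week peak, where 79.5% of WT peaks of the genome did. In turn 7 of 26 5 week peaks (26.9%) overlapped a WT peak, against 31.7% over the genome. The 7 shared places were 3 in HoxA, 0 in HoxB, 1 in HoxC and 3 in HoxD. The other 13 WT peaks were between 2 and 36583 bp from the nearest 5 week peak, with a median of 7649 bp. The smallest gap was inside Hoxc9, where a WT and a 5 week peak lay 2 bp apart. With the 1 week list 0 of 20 WT and 0 of 26 5 week Hox peaks overlapped, where 61.9% and 52.0% of all peaks did. Genome-wide shares include strong peaks, whereas 0 WT and 1 5 week Hox peak had a −log10 q of at least 5.

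Peak density was compared with the sequence beside the clusters. In WT the clusters had 3.76 peaks per 100 kb, the 200 kb on each side 3.0 and the genome 2.29. At 1 week the values were 0, 1.75 and 5.66, and at 5 weeks 4.89, 4.31 and 5.71. Pooled, the 4 clusters exceeded the genome mean in WT and fell short of it in both knockout lists, but HoxD at 5 weeks lay above it. In WT the pooled value fell short of that of the GC-richest 100 kb bins of the autosomes, which had 5.82 peaks per 100 kb. Among clusters the density ran from 2.39 (HoxC) to 6.06 (HoxA) in WT and from 1.63 (HoxB) to 10.3 (HoxD) at 5 weeks.

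**Figure D3:**
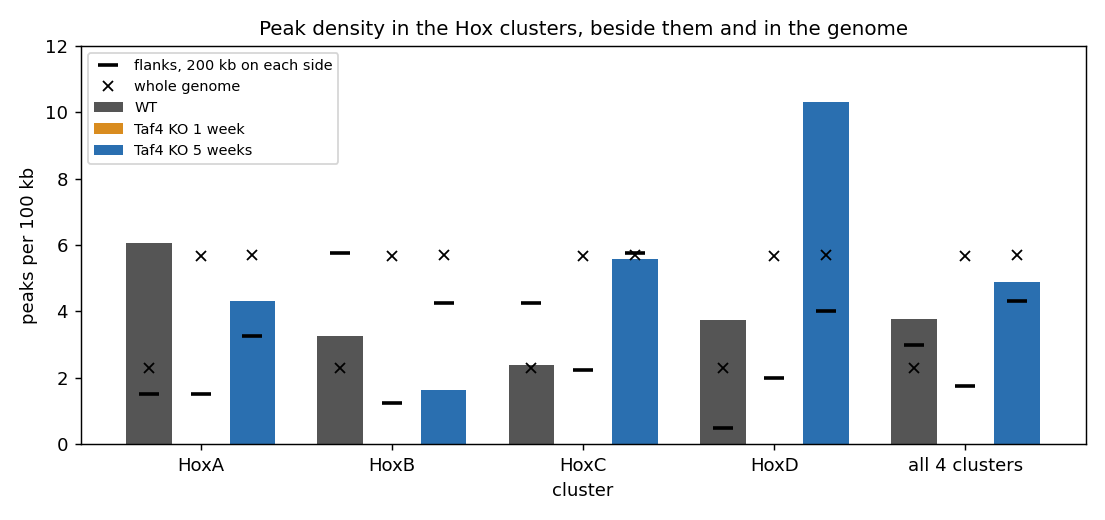
Peaks per 100 kb in each Hox cluster and in all 4 (bars), in the 200 kb on each side (dashes) and in the genome (crosses), for the WT, 1 week and 5 week lists. The 1 week bars are at 0 in every cluster while their flanks lie between 1.25 and 2.25, and the highest bar is HoxD at 5 weeks with 10.3.

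At 1 week each cluster lay whole inside 1 peak-free stretch. The stretches measured 246 kb at HoxA, 380 kb at HoxB, 277 kb at HoxC and 246 kb at HoxD, whereas the median distance between neighbouring peaks of that list was 8.77 kb. Of the distances between neighbouring peaks of the list, 0.149%, 0.0599%, 0.112% and 0.148% were as long as these or longer. Of all protein-coding genes with such a stretch defined, 924 of 22191 (4.16%) had every start in one at least as long as that of HoxA, and all 39 Hox genes did. The same stretches held 33 WT and 41 5 week peaks, of which 1 and 5 had a −log10 q of at least 5. In WT 0 Hox genes lay in a stretch of that length, against 14.6% of all genes, and at 5 weeks 0 against 3.0%. These stretches, like the distances and the CpG and GC groupings, were examined after the lists had been seen.

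The borders of the 1 week stretches were peaks found in the other lists too, in 6 of 8 cases in WT and 7 of 8 at 5 weeks. At HoxB the border on the posterior side was the promoter of Atp5g1, an ATP synthase subunit gene 118 kb from Hoxb13, with a −log10 q of 47.8, 9.79 and 47.5 in the WT, 1 week and 5 week lists. At HoxD the borders were the promoters of Lnp (23.3, 15.6 and 24.3) and Mtx2, a mitochondrial import gene (13.6, 7.29 and 11.1). At HoxA the nearer border was a peak 45.1 kb from Hoxa13, on the way to Evx1, with 2.77, 5.88 and 7.88. Peaks on both sides of every cluster were thus called at 1 week, 28 within the 200 kb flanks in all.

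The distance from a Hox start to the nearest peak had a median of 6035 bp in WT, 102634 bp at 1 week and 4152 bp at 5 weeks. At 1 week it ran from 45094 bp for Hoxa13 to 185046 bp for Hoxb9, and for each of the 39 genes it was longer than in WT and at 5 weeks. The lists placed a peak within 5 kb of 18, 0 and 23 of the 39 Hox genes, against 69.1%, 70.8% and 79.6% of all genes. At 5 weeks the gene farthest from a peak was Hoxb13 (48385 bp).

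**Figure D4:**
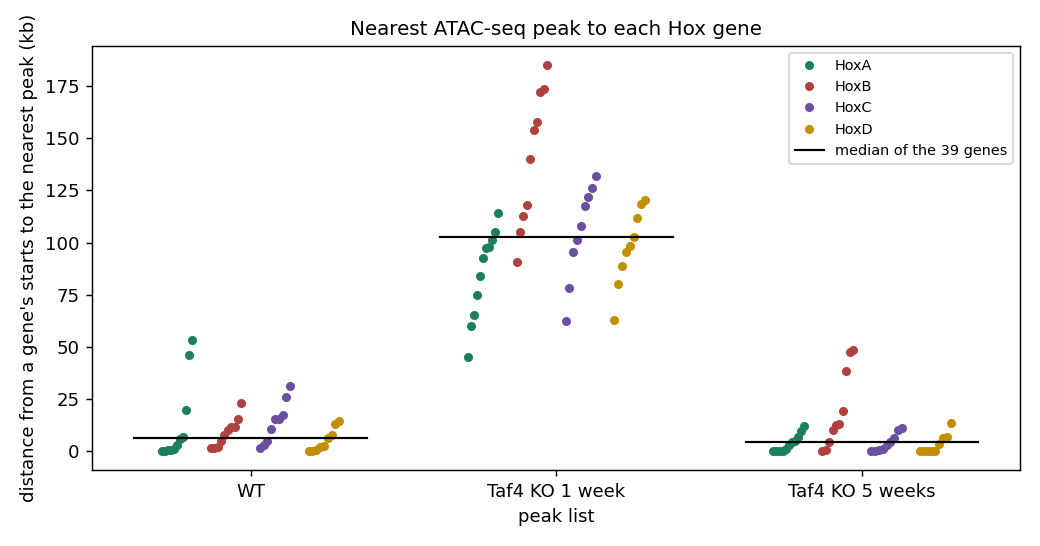
Distance in kb from the starts of each Hox gene to the nearest peak, by list. Each point is 1 of 39 genes, coloured by cluster and sorted within it, and the black line is the median of the 39. The 1 week points run from 45094 bp to 185046 bp, and the medians of the WT and 5 week lists are 6035 and 4152 bp.

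The 1 week library was deeper than WT by the background floor, and its lowest fold called at that floor was 2.13. The WT Hox peaks had folds of 2.44 to 3.46, all 20 above this value, as were 16 of 26 5 week peaks. Folds were not on a common scale, however. The median fold of all peaks was 3.19 in WT and 2.40 at 1 week, so a WT fold cannot be set against the 1 week limit. Base composition differed between the lists. With the 100 kb bins of the autosomes divided by GC into 5 groups of equal size, from the poorest to the richest the WT list went from 0.337 to 5.82 peaks per 100 kb and the 5 week list from 4.56 to 7.86, but the 1 week list from 8.29 to 4.03. All 4 clusters, at 48.8 to 49.7% GC, were in the richest group. There 2.01%, 6.39% and 0.648% of bins were without a peak in the WT, 1 week and 5 week lists. Of the 9 bins with a Hox start 0, 7 and 0 were without one, but these bins reach beyond the clusters and were not matched to that group, with a GC content of 40.00 to 49.95%. The parts of depth, enrichment and base composition in the 1 week result were not tested.

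The 5 week result depended on how peaks of lists of unequal depth were set side by side. When peaks with a −log10 q under 3 were dropped, the WT, 1 week and 5 week counts were 1, 0 and 3, and under a limit of 5 they were 0 in each list. With the strongest 60898 peaks of each list, the number in WT, they were 3, 0 and 3. When the p of each peak was recomputed at the WT background and cut at the WT limit, they were 3, 0 and 1 (Hoxa7), so that the excess over WT turned into a deficit. A window from 2500 bp upstream to 500 bp downstream gave 11, 0 and 14 and the gene body with 1000 bp upstream 14, 0 and 17. With the starts of non-coding transcripts added, a setting chosen after the data were seen, Hoxa6 joined in WT and at 5 weeks (4, 0 and 14). The 1 week count was 0 in all of these. None of them could have raised it, because the nearest 1 week peak was 45094 bp from a Hox start.

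**Figure D5:**
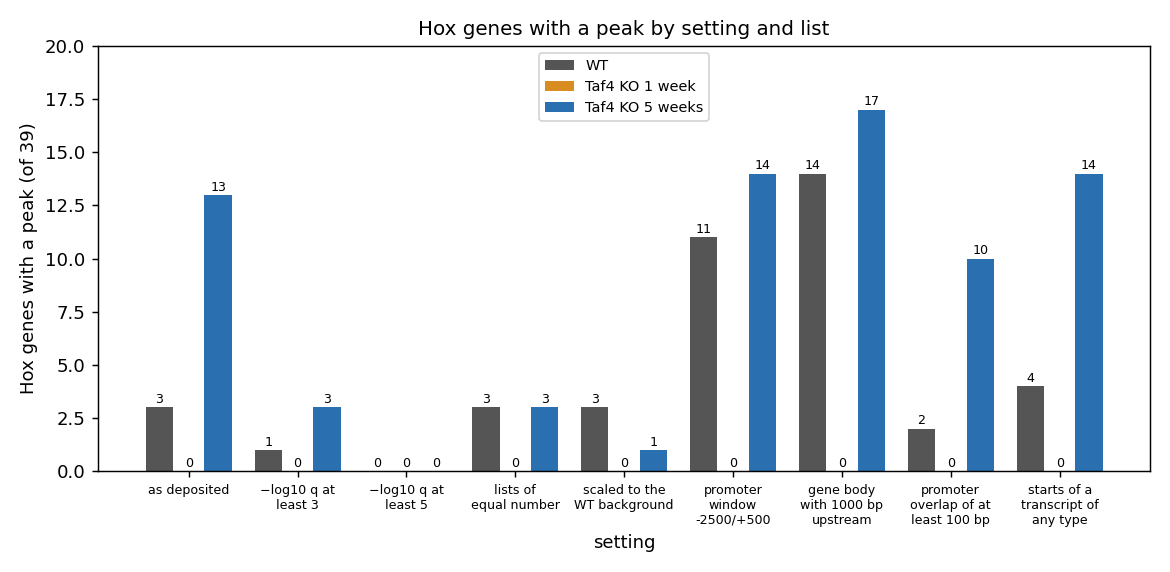
Number of the 39 Hox genes with a peak (vertical axis) in the WT, 1 week and 5 week lists under each setting of peak threshold, window or start (horizontal axis). The 1 week value is 0 under every setting shown, and no setting here could have raised it. The 5 week value runs from 0 to 17.

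Genes that flank the clusters gave a mixed picture. Skap2, the first protein-coding gene on the anterior side of HoxA, was called in each list, with a −log10 q of 21.7, 2.75 and 18.9, and so was Mtx2 beyond Hoxd1. Skap1 beyond Hoxb1 and Ttll6 beyond Hoxb13 were called in WT (5.73 and 1.33) and at 5 weeks (5.08 and 3.56) and not at 1 week. Gm17649 was called at 5 weeks only (1.21). Evx1 and Evx2, homeobox genes attached to the posterior ends of HoxA and HoxD, and Smug1 beyond Hoxc4 were called in no list. Long RNA genes overlapped by Hox peaks were 2700086A05Rik, Gm15051 and RP23-329P9.11 in HoxA, 0610040B09Rik in HoxB, Gm20398 in HoxC and 1700109F18Rik and 6720416L17Rik in HoxD. Where such a gene overlaps a Hox gene, a peak cannot be assigned to 1 of them. No annotated microRNA gene in the clusters was overlapped.

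The genes that act with or on Hox genes nearly all had a promoter peak. The WT, 1 week and 5 week lists called 59.2%, 56.1% and 65.8% of all protein-coding genes. Of those in the CpG-richest group they called 95.7%, 87.8% and 97.8%. Such high counts are thus common among CpG-rich promoters, and the lists below were not matched for CpG. Promoter peaks were called for 9, 8 and 9 of 9 cofactor genes of the Pbx, Meis and Pknox families in the WT, 1 week and 5 week lists. Pbx2 was the exception at 1 week, with 2.43 in WT and 4.32 at 5 weeks, and Pbx4 had 10.4, 8.23 and 20.5. Polycomb subunits were called in 16, 14 and 16 of 16 cases. Ezh1, a histone H3 lysine 27 methyltransferase, had 17.0 in WT and 17.3 at 5 weeks and Ring1, a ubiquitin ligase subunit, 3.19 and 9.51, with no peak at 1 week for either. Of 9 genes of the MLL and COMPASS complexes 9, 7 and 9 were called, Mll2 (10.5 and 5.32) and Rbbp5 (7.52 and 3.30) not at 1 week.

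Other homeobox genes were intermediate. Of the 6 ParaHox genes 4, 1 and 3 were called in the WT, 1 week and 5 week lists. Pdx1, the beta cell regulator, had 10.3, 10.3 and 9.77, while Gsx1 (3.05 in WT and 4.36 at 5 weeks), Gsx2 (1.55 and 1.16) and Cdx2 (2.62 in WT) had no peak at 1 week, and Cdx1 and Cdx4 had none in any list. Of 39 homeobox genes of other families 10, 9 and 19 were called. At 5 weeks 11 of them gained a promoter peak against WT and 2 lost one, beside 11 and 1 of the 39 Hox genes. Barx2 (15.3) and Emx1 (5.71) were called at 5 weeks only, and Dlx6 had 3.96 at 1 week and 4.89 at 5 weeks. A complete absence at 1 week was therefore not seen in that list of equal size, though its genes do not lie in 4 clusters as the Hox genes do. Only 1 of its members (2.56%) lay in a 1 week stretch as long as that of HoxA, namely Evx2, in the HoxD stretch itself. By distance, however, 8 of its members (20.5%) were at least as far from a 1 week peak as the nearest Hox gene. The same held for 1 of the 6 ParaHox genes and for 6.41% of all genes. The clustered protocadherins, another family of tandem genes, had 4, 3 and 5 of 24 called. Pcdhb14 and Pcdhb11 were called at 5 weeks only (1.80 and 1.14), Pcdhb17 in WT only (1.52) and Pcdhgc5 in each list (11.5, 12.7 and 17.1). None of the 24 lay in such a stretch at 1 week, or as far from a peak as the nearest Hox gene.

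Markers of endothelial cells and of stellate cells and fibroblasts were called more often at 5 weeks than in the other lists as deposited, whereas immune, acinar and duct counts were equal at 1 and 5 weeks. In a bulk library, fewer cells of a type and less accessibility per cell cannot be told apart. Promoter peaks among 13 endothelial genes numbered 4, 6 and 11 in the WT, 1 week and 5 week lists, with Robo4 at 2.01 and 3.63 and Tie1 at 1.49 and 2.81 in the knockout lists, Eng at 2.36 at 5 weeks only, and Egfl7 at 1.41 in WT and 3.89 at 5 weeks. Among 12 stellate and fibroblast genes they numbered 2, 5 and 7, with Des (4.0), Col1a2 (3.40) and Thy1 (2.17) at 5 weeks only and Dcn at 2.52 and 1.37 at 1 and 5 weeks. Among 10 immune genes there were 0, 2 and 2, among 9 acinar genes 1, 2 and 2, and among 8 duct genes 4, 5 and 5. Of these, Emr1 had 1.98 and 1.89 in the knockout lists, Csf1r 1.37 at 5 weeks and Ptprc 1.26 at 1 week, Ptf1a had 2.2 at 5 weeks, and Sox9 had 2.15 in WT and 2.84 at 5 weeks. The deeper lists held more such calls, and their part in the Hox count at 5 weeks was not tested. With lists of equal number the endothelial counts were 4, 2 and 3 and the stellate and fibroblast counts 2, 3 and 4, and scaled to the WT background they were 4, 2 and 2, and 2, 3 and 2. The endothelial excess over WT in both knockout lists thus turned into a deficit.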

How the data were processed

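Broad peak lists of 3 ATAC-seq libraries were analysed. Per the study and the submitters' processing notes, reads were demultiplexed with bcl2fastq 2.17.1.14, aligned to mm9 with Bowtie 1.0.0, keeping uniquely placed reads, and peaks were called per library with MACS2 2.1.1. A control library, duplicate removal, a shift to the insertion site and the call threshold are not given in the sources used here. The deposited lists give for each peak the fold over local background as a ratio, and the −log10 p-value and −log10 q-value, all as averaged by the authors' caller. Its whole-number score was not used. Read totals are not in the lists, and the depth was estimated from the background that fold and p-value imply (floor taken as the 1st percentile, in reads). The recovery was run on simulated peaks made with the same formula. Those values were not averaged over a peak as the deposited ones are, so the effect of averaging on the floor was not tested. Values were compared within a list, and calls between lists.

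The 2 mitochondrial peaks of each list were left out. Starts and genes came from GENCODE for NCBIM37, the same assembly as mm9, with starts of protein-coding transcripts (73 for the Hox genes, of 45993). Of genes sharing a symbol all starts were pooled, and Hoxa3 had 2 gene identifiers. Amy2b was not matched. The values of 1 Hox gene, and of some genes and a sequence that the naming rule would include, are not reported here, though the genes are counted. The Hox genes, the other gene lists and the settings were chosen with earlier results of these data known, and the lists support nothing beyond their counts. Genes were named by a fixed rule: every Hox gene called in any list, the strongest peak of each cluster and list, the first gene on each side, long RNA genes under a peak, and up to 4 members per other list, those whose call differed between lists first. Border genes of the 1 week stretches, and genes named besides these, were chosen after their values were seen. Alternatives were peak thresholds of −log10 q 3 and 5, lists of equal number, scaling to the WT background, other windows and overlaps, and cluster borders with 0 or 20000 bp added in place of 5000 bp. Python 3.11.15 with pandas 2.3.3, scipy 1.17.1 and pysam 0.24.0 was used.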

Additional observations from a re-analysis of the deposited data

Results flagged for a closer look

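The number of Hox genes with a promoter peak went opposite ways against WT at the 2 times in the lists as deposited. The share of all protein-coding genes called went the same ways, from 59.2% in WT to 56.1% at 1 week and 65.8% at 5 weeks. At 1 week 8.55% of all genes lost a promoter peak, and at 5 weeks 7.73% gained one. The net change of Hox genes was -3 at 1 week, where all 3 called in WT were without a peak. It was 10 at 5 weeks, where 11 genes were called that were not in WT and 1 was lost. With 1 library per group the difference between the times was not tested, and both values share the WT library. The 1 week list was about as long as the 5 week list (150354 and 151725 peaks). With lists of equal number the 5 week net change was 0, and scaled to the WT background it was -2, the same direction as at 1 week.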

How the results depend on the processing

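The 1 week counts of Hox promoter peaks, of peaks over the clusters and of WT peaks shared with 1 week were 0 under each peak threshold, scaling, window and overlap tried for them. With no 1 week peak near the clusters, none of these settings could have raised them. The others moved as follows, and the cause was not tested. With −log10 q of at least 3, promoters were 1 in WT and 3 at 5 weeks. The 1 week loss was 1 (net -1), the 5 week gain 2 and loss 0 (net 2), cluster peaks were 1 and 8, and 1 was shared. With at least 5, promoters, gains, losses, net changes (0 at both times), WT cluster peaks and shared peaks were 0, with 1 cluster peak at 5 weeks. With lists of equal number, 5 weeks had 3 promoters, 1 gained, a net of 0, 8 cluster peaks and 4 shared. Scaled to the WT background, 5 weeks had 1 promoter, 0 gained, 2 lost, a net change of -2 instead of 10 (the direction reversed), 5 cluster peaks and 3 shared. With the window of 2500 bp upstream and 500 bp downstream, WT had 11 promoters, all 11 lost at 1 week (net -11), and 5 weeks had 7 gained, 4 lost and a net of 3. With the gene body, WT had 14, all 14 lost at 1 week (net -14), and 5 weeks had 5 lost and a net of 3. With a reciprocal overlap of 50%, 1 WT peak was shared with 5 weeks. Of the 100 alternative values for these results 57 stayed within 1.5 times the reported one, as did 155 of 258 for single clusters, covered length and other gene lists. Both counts include the 1 week zeros, which no setting could change.

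No paired analysis was possible because each group has 1 library. No Hox peak had a −log10 q above 5.26, which limits every count. Among peaks at the background floor the lowest fold called was 2.56 in WT and 1.91 at 5 weeks. Peaks over a higher background were called at lower folds. The lists hold called peaks only, so accessibility under the threshold was not measured, and the absence of a peak is not the absence of open chromatin.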
